A study of Mus musculus with 8 samples.

Results

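The 9 genes described here encode transcription factors that set intestinal identity or drive enterocyte maturation: Cdx1, Cdx2, Hnf4a, Hnf4g, Gata4, Gata6, Klf4, Klf5 and Elf3. They were taken by name, and every probe set that the platform annotation assigns to exactly 1 of these symbols was used, which gave 18 of the 45037 probe sets that are not controls. RNA came from whole ileal tissue of 8 males, 4 of them Slc51a knockout and 4 wild type, all of C57BL/6 background and about 2 months old. All were fasted for 4 h and anaesthetised with ketamine-xylazine before tissue was taken, and every mouse sample had its own Affymetrix array read from the 3' ends of transcripts. Slc51a encodes a subunit of the transporter that carries bile acids out of the enterocyte through its basolateral membrane. Values are the authors' RMA signals on the log2 scale, where a difference of 1 is a doubling. A difference is the knockout mean minus the wild-type mean, followed by its standard error (SE), with 4 samples a genotype, from a limma fit over all 45037 probe sets. A call is a Benjamini-Hochberg adjusted p below 0.05. The labels say biological replicate, but not how the knockout allele was made, nor whether the groups were littermates.

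The caudal-type homeobox factors CDX1 and CDX2 give the gut epithelium its intestinal rather than gastric character, with CDX1 more abundant in crypts and CDX2 along the whole crypt and villus. HNF4A and HNF4G are closely related nuclear receptors with overlapping roles in switching on the absorptive programme of the villus, from lipid handling to the brush border. GATA4 marks the proximal small intestine and keeps ileal bile acid genes silent there, whereas GATA6 is made along the whole length and supports crypt proliferation. KLF4 is a zinc finger factor of post-mitotic villus and goblet cells, KLF5 is its relative in dividing crypt cells, and ELF3 is an ETS factor restricted to epithelia.

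The Slc51a signal lay between 11.29 and 11.41 in the wild-type samples and between 4.50 and 4.68 in the knockout samples, beside a median of 4.58 over all probe sets. Array medians ran from 4.56 to 4.60. The ileal marker Fabp6 was at 13.11 ± 0.02 and 13.18 ± 0.03 (mean ± SD, wild type then knockout, n = 4 each, the order and error used throughout). Of 12 measured gastric markers 0 were called, and 7 lay below 4.58 in both genotypes, among them the stomach factor Sox2 at 2.94 and 2.93. The other 5 were brighter, up to 7.53 and 7.39 for Tff1. Hybridization controls were lowest on knockout replicate 3 (8.74), wild type replicate 2 (8.83) and knockout replicate 4 (8.86), against 8.95 to 9.15 on the other arrays. The calls of the factors given below were the same without these 3 arrays. No batch is named in the sources used here, so a batch and the genotype cannot be told apart.

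Klf4 fell, Cdx1 rose, Hnf4g fell on its brightest probe set, and Cdx2, Hnf4a, Gata4, Gata6, Klf5 and Elf3 were not called. By probe set, 1 of 18 was higher, 3 were lower and 14 were not called, so 22.2% of the 18 were called. Over all probe sets 21.6% were called, 11.8% higher and 9.81% lower, so the share among the factors lay near that background. By the brightest probe set of each gene, 1 of 9 factors rose, 2 fell and 6 were not called, against 28.4% of 17097 genes called in either direction. Groups did not overlap for 5 of the 18 probe sets and 4 of the 9 genes, against 23.8% of all probe sets and 30.7% of all genes. An unadjusted limma p under 0.05 was found for 9 of the 18, and for 14360 of the 45037 probe sets.

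**Figure D1:**
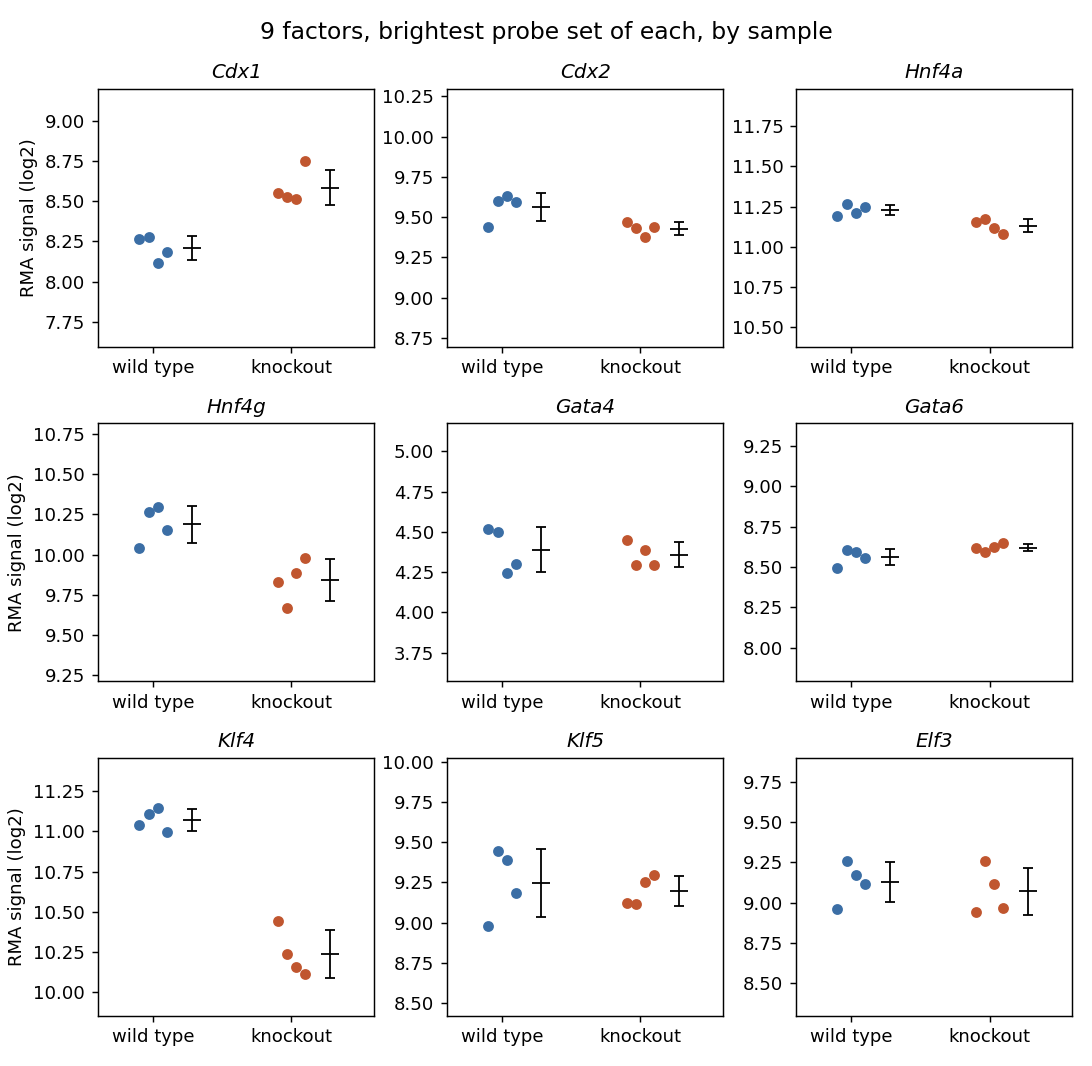
RMA signal (log2) of the brightest probe set of each of the 9 factors in the 4 wild-type (blue) and 4 knockout (orange) samples, with the mean and SD as bars to the right of the points; every panel spans the same 1.6 log2 units. Mean signals go from 11.07 to 10.24 for Klf4, from 8.21 to 8.58 for Cdx1 and from 10.19 to 9.84 for Hnf4g, while the other groups lie close together.

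Klf4 changed more than any other factor of the 9. Its brighter probe set, 1417394_PM_at, read 11.04, 11.11, 11.15 and 10.99 in the wild-type samples and 10.45, 10.24, 10.16 and 10.11 in the knockout samples. The highest knockout sample lay below the lowest wild-type sample, with a gap wider than the spread within either group. Klf4 fell by 0.83 (SE 0.07, adjusted p = 1.96e-05), a level 1.78-fold lower. The other probe set, 1417395_PM_at, read 10.84, 10.89, 10.96 and 10.84 in wild type and 10.06, 10.10, 9.92 and 9.94 in the knockout. It fell by 0.88 (SE 0.06, adjusted p = 3.23e-06), and the changes of the 2 probe sets differed by 0.05 (2-sided exact permutation p = 0.600, adjusted p = 0.657 over 9 such pairs). On leaving out 1 array the fall of the brighter probe set ran from -0.90 to -0.79. Because whole ileum was assayed, fewer cells of a type and less RNA per cell cannot be told apart.

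The promoter of Klf4 is shown because this gene carried the widest change of the 9; RefSeq places the 250 bases before its start at chr4:55532476-55532725 of GRCm38.p6, minus strand, and the capitals mark a match to TTTAT, the core of the CDX binding motif, searched on both strands.
Klf4: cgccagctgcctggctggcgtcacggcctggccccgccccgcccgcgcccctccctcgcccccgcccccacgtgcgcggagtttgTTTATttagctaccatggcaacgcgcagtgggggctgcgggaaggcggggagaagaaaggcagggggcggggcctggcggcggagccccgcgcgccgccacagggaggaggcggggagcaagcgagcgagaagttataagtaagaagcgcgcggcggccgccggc
The match starts at position -165, counted back from the start site. TTTAT or its reverse complement ATAAA stood in 37.3% of 32851 promoter windows of this length. The window is 74.0% G and C and held no CACCC or GGGTG, the CACCC box to which KLF factors bind, which 52.0% of windows held. Only these letters were searched for KLF factors, so their absence does not show that the window lacks KLF sites. The window also held 1 GGAAG, the ETS core, at -126 (64.1% of windows), and held neither GATAA, the GATA core, nor CAAAG, a core of the HNF4 motif, on either strand. No matches overlapped, and a match of letters is a description and not a bound site.

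Among its Krüppel-like relatives Klf6 fell most. Of 11 other measured KLF genes 0 rose, 3 fell and 8 were not called, with a median difference of -0.05 against 0.01 over all genes, where 16.3% rose and 12.0% fell. Klf6, an injury- and growth-responsive member, fell by 0.86 (SE 0.08, adjusted p = 2.98e-05) from 10.24 ± 0.17 to 9.38 ± 0.09. Klf2, abundant in endothelium and resting lymphocytes, fell by 0.37 (SE 0.09), and Klf3, a repressor, fell by 0.32 (SE 0.04). Klf5, the crypt member, read 8.98, 9.44, 9.39 and 9.18 in wild type and 9.12, 9.11, 9.25 and 9.30 in the knockout. The Klf5 groups overlapped fully, with a difference of -0.05 (95% interval -0.26 to 0.16, adjusted p = 0.766). The within-array signal of Klf4 minus that of Klf5 was 1.82 ± 0.17 in wild type and 1.04 ± 0.23 in the knockout. The change of Klf4 was lower than that of Klf5 by 0.78 on this scale with no overlap of the groups, at the smallest p that 4 against 4 allows (2-sided exact permutation p = 0.0286, adjusted p = 0.0572 over 4 pairs of relatives).

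Genes that KLF4 or KLF5 are known to control in the cell cycle moved in both directions. Of 9 measured, 4 rose, 2 fell and 3 were not called (median 0.15). Birc5, a mitotic survival gene repressed by KLF4, rose by 0.79 (SE 0.06), the ornithine decarboxylase gene Odc1 by 0.47 (SE 0.06) and the mitotic kinase gene Cdk1 by 0.46 (SE 0.06). The kinase gene Pim1, induced by KLF5, fell by 0.49 (SE 0.07), and Cdkn1a, the cell cycle inhibitor that KLF4 induces, named after its value was seen, fell by 0.21 (SE 0.05). Without the 3 arrays with the lowest controls the Cdkn1a difference was -0.16 (adjusted p = 0.122). Of 10 measured goblet cell genes 1 rose, 2 fell and 7 were not called (median -0.03). Agr2, a disulfide isomerase needed for mucin folding, rose by 0.29 (SE 0.06), while the secreted goblet proteins Clca1 and Fcgbp fell by 0.40 (SE 0.05) and 0.40 (SE 0.07). Klf4 is also induced as an immediate early gene, and of 12 others of that kind 0 rose, 3 fell and 9 were not called (median -0.29), with all 12 differences below 0. Jun fell by 0.89 (SE 0.11) and Junb by 0.41 (SE 0.07), whereas Fos was at 10.27 ± 0.54 and 10.03 ± 0.39 (adjusted p = 0.593). Egr1, named after its value was seen, had the widest difference of the list, -0.91 (SE 0.32, adjusted p = 0.0702). It was called without wild type replicate 1 (-1.17, adjusted p = 0.0186) or knockout replicate 3 (-1.15, adjusted p = 0.0292), and in a fit that adds the hybridization control mean (-1.33, adjusted p = 0.0106), where 5 of the 12 fell. Nr4a1 fell by 0.41 (SE 0.11), and without knockout replicate 1 its adjusted p was 0.0508.

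Markers of muscle and lymphoid cells were lower beside Klf4. All 10 measured smooth muscle genes fell (median -0.88), and their mean signal lay between 9.10 and 9.51 in the wild-type samples and between 8.33 and 8.59 in the knockout samples. Of 8 endothelial markers 0 rose, 2 fell and 6 were not called (median -0.18), with mean signals of 5.07 to 5.20 and 4.88 to 4.97. Of 8 macrophage markers 1 rose, 2 fell and 5 were not called (median -0.23), and of 9 fibroblast markers 1 rose, 2 fell and 6 were not called (median -0.02). Without wild type replicate 2, 4 macrophage markers were lower, C1qb (-0.63, adjusted p = 0.00198) and Cd68 (-0.30, adjusted p = 0.0406) being added, and 4 were lower without the 3 arrays with the lowest controls. The rise of the macrophage marker Mrc1 was lost without any 1 of wild type replicates 2 and 4 and knockout replicates 1, 3 and 4, and that of the fibroblast marker Pdgfra without any 1 of wild type replicates 1 and 2 and knockout replicates 1, 2 and 4. The fall of Col6a1, a fibroblast marker, was lost without any array other than knockout replicate 2. T lymphocyte markers fell in 6 of 7 cases (median -0.97), with mean signals of 7.00 to 7.18 and 5.60 to 5.88. No marker is at 0 on this scale; the endothelial Pecam1, Cdh5, Tek and Emcn, the macrophage Cd68 and Itgam and the fibroblast Col1a2 and Pdgfra lay below 4.58 in both genotypes. General epithelial markers ran in both directions, 2 higher, 3 lower and 4 not called of 9 (median -0.08), with mean signals of 12.02 to 12.07 and 11.96 to 12.05. The part of these cells in the Klf4 result was not tested.

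**Figure D2:**
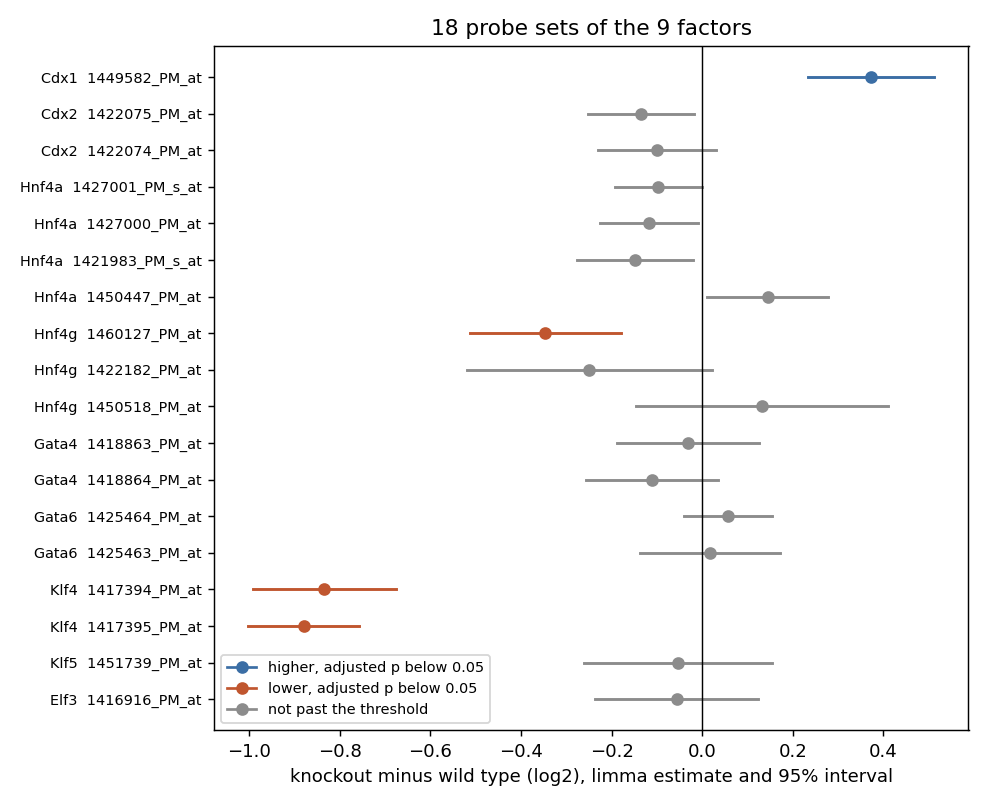
Difference between knockout and wild type (log2) for each of the 18 probe sets with its 95% interval from limma, n = 4 per genotype; blue marks a call higher, orange a call lower and grey no call. Both Klf4 probe sets lie at -0.83 and -0.88, Cdx1 lies at 0.37, and the probe sets of Hnf4a and Hnf4g spread to both sides of 0.

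Cdx1 rose and Cdx2 was not called. The Cdx1 probe set read 8.26, 8.28, 8.11 and 8.19 in wild type and 8.55, 8.52, 8.51 and 8.75 in the knockout. All knockout samples lay above all wild-type samples. The rise was 0.37 (SE 0.06, adjusted p = 0.00147), a level 1.29-fold higher, and on leaving out 1 array it ran from 0.32 to 0.40. Cdx2 was read by a pair of probe sets. The brighter, 1422075_PM_at, gave 9.44, 9.60, 9.63 and 9.59 in wild type and 9.47, 9.43, 9.38 and 9.44 in the knockout, with wild type replicate 1 inside the knockout range. Its difference was -0.14 (95% interval -0.25 to -0.02, adjusted p = 0.0987). Without wild type replicate 1 the Cdx2 difference was -0.18 and was called (adjusted p = 0.0260). The dimmer probe set, 1422074_PM_at, differed by -0.10 (95% interval -0.23 to 0.03, adjusted p = 0.294). With cyclic loess both were called lower, 1422075_PM_at by 0.22 (adjusted p = 0.00896) and 1422074_PM_at by 0.17 (adjusted p = 0.0472). With quantile normalisation the brighter was lower by 0.17 (adjusted p = 0.0370).

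The changes of the caudal factors were also set against each other. Within each array, Cdx1 minus Cdx2 was -1.17, -1.32, -1.51 and -1.41 in wild type and -0.92, -0.91, -0.86 and -0.69 in the knockout. These groups did not overlap, and the change of Cdx1 exceeded that of Cdx2 by 0.51 (SE 0.09, 2-sided exact permutation p = 0.0286, adjusted p = 0.0572, past 0.05 before adjustment only). A within-array contrast of this kind asks whether the changes were unequal, here not past 0.05 after adjustment. It does not show that either gene stayed level.

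Of 8 measured genes that CDX2 is known to activate, 0 rose, 4 fell and 4 were not called (median -0.18). The peptide transporter gene Slc15a1 fell by 1.50 (SE 0.16) from 10.20 ± 0.10 to 8.70 ± 0.42, and the brush border protease gene Mep1a by 1.28 (SE 0.09). Heph, the ferroxidase of iron export, fell by 0.41 (SE 0.05) and the microvillus actin bundler Vil1 by 0.24 (SE 0.04). Cdh17, the intestinal cadherin, was at 11.98 ± 0.07 and 11.86 ± 0.03 with groups that did not overlap (adjusted p = 0.116), and the guanylin receptor gene Gucy2c at 9.08 and 9.07 (adjusted p = 0.983). Cdh17 was called lower with quantile normalisation, by 0.16 (adjusted p = 0.0257), and with cyclic loess, by 0.22 (adjusted p = 0.00467). Sis, Lct, Muc2 and Isx were not analysed here. Car1, which counts as a colonic marker too, varied more between animals than between genotypes, at 9.27 ± 2.15 and 10.08 ± 1.38. Of 7 crypt stem cell genes, 0 rose, 2 fell and 5 were not called (median -0.19), with 6 differences below 0. The number lower ran from 0 to 5 over the alternatives run, a threshold of 0.1 among them. Olfm4, named after its value was seen, differed by -0.18 (adjusted p = 0.0584). It was called lower with cyclic loess (adjusted p = 0.00954) and without the 3 arrays with the lowest controls (adjusted p = 0.0417). The Lgr5 and Rnf43 calls were each lost on leaving out any of 6 arrays, all but wild type replicate 1 and knockout replicate 4.

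**Figure D3:**
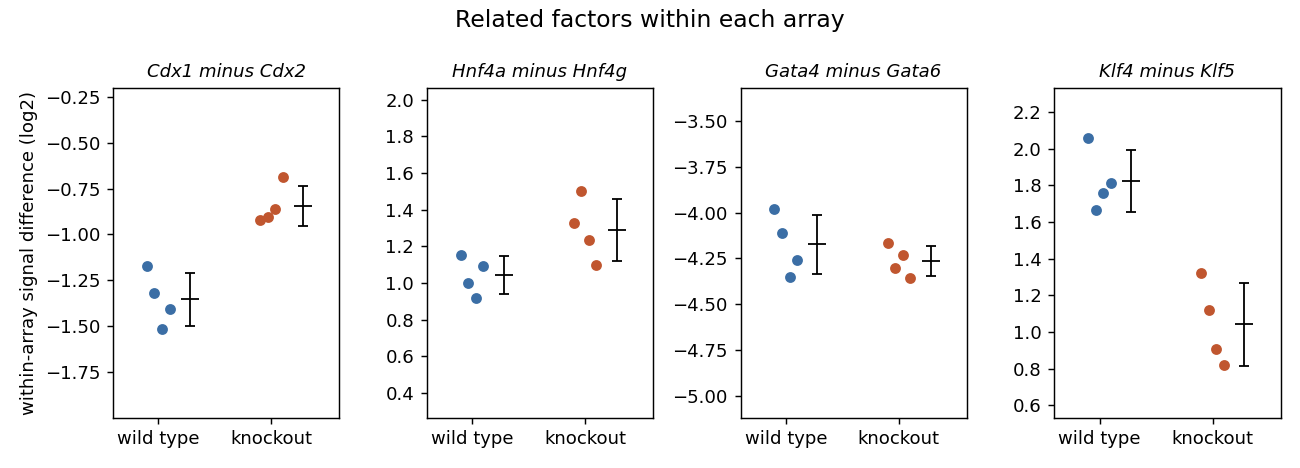
Within-array difference in RMA signal (log2) between the brightest probe sets of related factors, in 4 wild-type (blue) and 4 knockout (orange) samples with mean and SD; the level of a difference depends on the probes, so only its shift between genotypes can be read. Cdx1 minus Cdx2 moves up by 0.51 and Klf4 minus Klf5 moves down by 0.78 with no overlap of the groups; Gata4 lies below 4.58 on every array, so its panel bears little on a shift.

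Hnf4a stayed bright in both genotypes, and none of its 4 probe sets was called. The brightest, 1427001_PM_s_at, read 11.19, 11.26, 11.21 and 11.25 in wild type and 11.16, 11.17, 11.12 and 11.08 in the knockout. These groups did not overlap, though by a narrow margin, and the difference was -0.10 (SE 0.04, adjusted p = 0.153). Probe sets 1427000_PM_at and 1421983_PM_s_at differed by -0.12 (adjusted p = 0.126) and -0.15 (adjusted p = 0.10). The dimmest, 1450447_PM_at, read 6.27, 6.48, 6.35 and 6.31 in wild type and 6.40, 6.60, 6.50 and 6.49 in the knockout. It differed by 0.14 (adjusted p = 0.126) with overlapping groups. Its change exceeded that of the brightest probe set, the shift of the brightest minus the dimmest being -0.24 with no overlap of the groups (2-sided exact permutation p = 0.0286, adjusted p = 0.129 over 9 pairs). That p is the smallest that 4 against 4 allows, so the adjusted value could not pass 0.05 unless most of the 9 pairs reached it. All 4 had an unadjusted p under 0.05. The calls of the 3 brighter ones turned on the scaling, whereas 1450447_PM_at was called with none of the scalings run (adjusted p = 0.0716 to 0.178). With cyclic loess the 3 brighter probe sets were lower by 0.19, 0.21 and 0.22 and called, the adjusted p being 0.00779 for 1427001_PM_s_at.

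RefSeq lists start sites of Hnf4a in 2 separate stretches, and both are shown because the probe sets of this gene did not point one way; the capitals mark CACCC or its reverse complement GGGTG, the KLF box, in the 250 bases before each start on the plus strand of GRCm38.p6.
Hnf4a chr2:163506607-163506856: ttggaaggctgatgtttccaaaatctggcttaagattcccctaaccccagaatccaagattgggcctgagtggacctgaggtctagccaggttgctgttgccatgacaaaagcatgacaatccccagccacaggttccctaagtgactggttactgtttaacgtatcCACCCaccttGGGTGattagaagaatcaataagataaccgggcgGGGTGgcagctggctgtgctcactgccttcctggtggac
Hnf4a chr2:163546905-163547154: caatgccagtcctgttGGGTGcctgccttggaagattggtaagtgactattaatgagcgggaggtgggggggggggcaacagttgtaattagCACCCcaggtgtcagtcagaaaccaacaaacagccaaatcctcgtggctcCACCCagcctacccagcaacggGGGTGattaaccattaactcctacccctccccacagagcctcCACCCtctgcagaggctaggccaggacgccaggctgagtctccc
The first held 3 matches and the second held 5, a box found at least once in 52.0% of windows. The share of windows with as many matches was not worked out. The first held GATAA once, at -51, the core that GATA factors bind, as did 22.6% of windows on either strand. Neither held the TTTAT core of CDX on either strand, and neither held the HNF4 motif core CAAAG on either strand, which 48.6% of windows held. The values do not tell which start site a probe set reads.

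Hnf4g was called on 1 of its 3 probe sets. The brightest, 1460127_PM_at, read 10.04, 10.26, 10.29 and 10.16 in wild type and 9.83, 9.67, 9.89 and 9.98 in the knockout. All knockout samples lay below all wild-type samples, by 0.35 on average (SE 0.08, adjusted p = 0.00676), a level 1.27-fold lower. Probe set 1422182_PM_at differed by -0.25 (SE 0.12, adjusted p = 0.194), and 1450518_PM_at by 0.13 (SE 0.13, adjusted p = 0.539). Both are dimmer, between 6.69 and 6.94 on average, and their knockout samples overlapped the wild-type samples. The change of the brightest probe set minus that of 1450518_PM_at was -0.48, with no overlap of the groups (2-sided exact permutation p = 0.0286, adjusted p = 0.129). Here too the p is the smallest that 4 against 4 allows. With the mean of the 3 probe sets the Hnf4g difference was -0.15 and not called (adjusted p = 0.295). The difference of Hnf4a (-0.10) was smaller than that of Hnf4g (-0.35), both on the brightest probe set. Within arrays Hnf4a minus Hnf4g shifted by 0.25 with overlapping groups (2-sided exact permutation p = 0.0571, adjusted p = 0.0761).

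Genes that HNF4 factors are known to activate were mostly lower. Of 16 measured, 1 rose, 12 fell and 3 were not called (median -0.57), where 12.0% of all genes fell and their median was 0.01. The apolipoprotein gene Apoc3 fell by 1.77 (SE 0.10) from 9.22 ± 0.14 to 7.44 ± 0.21, and Apoa1 by 0.73 (SE 0.08). The protocadherins that link microvillus tips, Cdhr2 and Cdhr5, fell by 0.94 (SE 0.06) and 0.70 (SE 0.07). Other members, named after their values were seen, ran the other way or were not called: Cpt1a, which admits fatty acids to mitochondria, rose by 0.46 (SE 0.06), while Fabp2 was at 12.88 and 12.78 (adjusted p = 0.196) and Acadm at 10.23 and 10.24 (adjusted p = 0.968). With cyclic loess Fabp2 was called lower, by 0.21 (adjusted p = 0.0102). On leaving out 1 array 10 to 12 of the 16 were lower, and 10 were without the 3 arrays with the lowest controls. The list was drawn up with earlier results of these samples known, so its count is no independent evidence of its direction.

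**Figure D4:**
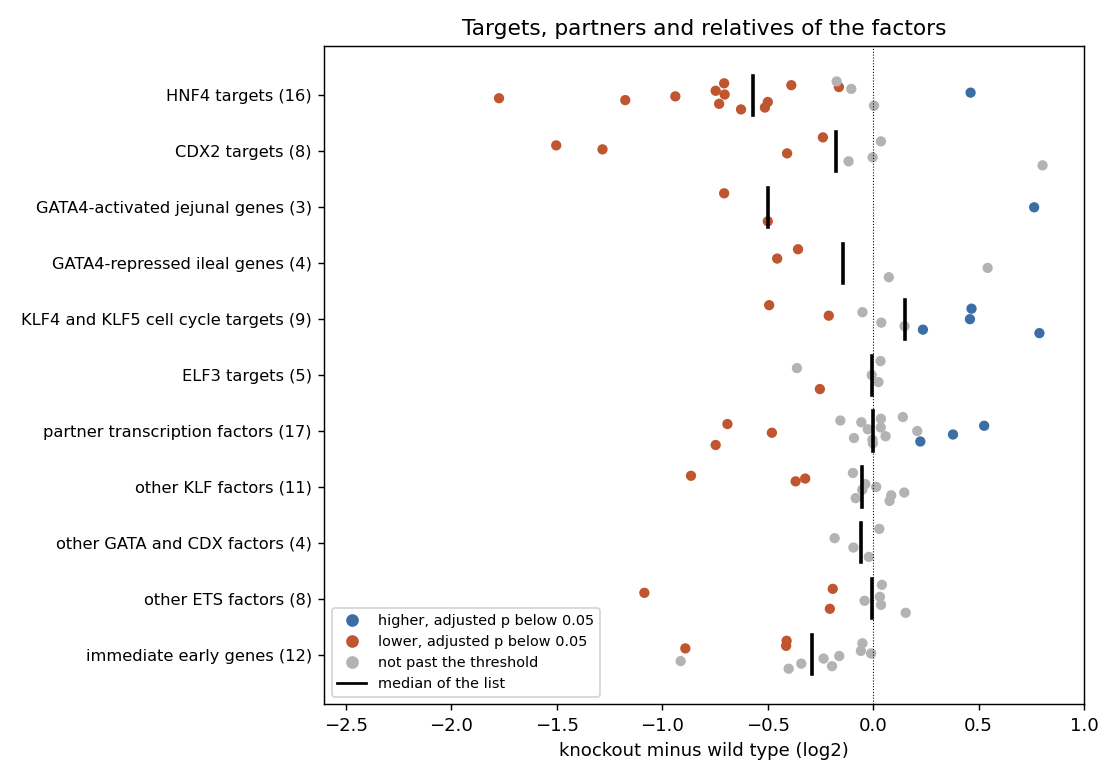
Difference between knockout and wild type (log2) for each measured gene of the lists of known targets, partners and relatives of the factors, number of genes in parentheses, n = 4 per genotype; blue marks a call higher, orange a call lower, grey no call and the black bar the median of the list. The HNF4 list is shifted to a median of -0.57, whereas partner factors lie around 0.

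Gata4 was dim, and neither Gata4 nor Gata6 was called. The Gata4 probe set 1418863_PM_at read 4.52, 4.50, 4.24 and 4.30 in wild type and 4.45, 4.29, 4.39 and 4.29 in the knockout, below 4.58 in every sample. The other, 1418864_PM_at, averaged 3.49 and 3.38. Neither was called (adjusted p = 0.819 and 0.295), and a change this near the floor would be understated. Gata6 read 8.50, 8.61, 8.59 and 8.56 in wild type and 8.62, 8.59, 8.62 and 8.65 in the knockout on its brighter probe set, 1425464_PM_at. The groups overlapped, and the difference was 0.06 (95% interval -0.04 to 0.16, adjusted p = 0.425). Probe set 1425463_PM_at differed by 0.02 (95% interval -0.14 to 0.17, adjusted p = 0.907). Both intervals of Gata6 leave out a difference of 0.2 in either direction, whereas that of Klf5 holds a difference of -0.2. The change of Gata4 minus that of Gata6 was -0.09 (2-sided exact permutation p = 0.371, adjusted p = 0.371), a contrast that says little because the Gata4 signal lay below 4.58 on all 8 arrays. The other measured GATA and CDX genes, Cdx4, Gata1, Gata2 and Gata3, were all below 4.58 on average and 0 of 4 were called.

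Genes that GATA4 is known to switch on in the jejunum or to hold silent there moved without a common direction. Of 3 measured jejunal genes, the cholesterol transporter Npc1l1 fell by 0.71 (SE 0.10), Apoa4 by 0.50 (SE 0.15), and the fatty acid binding protein Fabp1 rose by 0.76 (SE 0.21). The Fabp1 call ended on leaving out any of 7 of the 8 arrays (adjusted p = 0.0511 to 0.0719), all but knockout replicate 2, and that of Apoa4 for 6 of 8 (adjusted p = 0.0591 to 0.101), all but wild type replicate 3 and knockout replicate 1. Of the 4 ileal genes, Slc10a2, the apical bile acid importer, fell by 0.45 (SE 0.07) and Slc51b, the partner subunit of Slc51a, by 0.36 (SE 0.07). Without the 3 arrays with the lowest controls the Slc51b difference was -0.35 (adjusted p = 0.0617). Fabp6 differed by 0.07 (adjusted p = 0.254) and the hormone gene Fgf15 by 0.54 (SE 0.36, adjusted p = 0.345). Npc1l1 and Apoa4 are also counted among the HNF4 targets.

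Elf3 read 8.96, 9.26, 9.17 and 9.11 in wild type and 8.94, 9.26, 9.12 and 8.97 in the knockout. The groups overlapped fully and the difference was -0.06 (95% interval -0.24 to 0.12, adjusted p = 0.706). Among 5 genes that ELF3 is known to control, the claudin Cldn7 fell by 0.25 (SE 0.04, adjusted p = 0.00159). Tgfbr2, the receptor through which ELF3 acts in the villus, was at 8.22 and 8.26, Krt8 at 12.91 and 12.93, Nos2 at 5.12 and 5.12, and Ptgs2 at 4.94 and 4.58, none of them called. Of 8 other ETS genes 0 rose, 3 fell and 5 were not called (median -0.004). Ets1, a factor of lymphocytes and stroma, fell by 1.08 (SE 0.08, adjusted p = 8.01e-06), beside the T lymphocyte markers that fell as given above. Ets2 fell by 0.19 (SE 0.04) and Elf1 by 0.21 (SE 0.05), calls that were lost without the 3 arrays with the lowest controls (adjusted p = 0.0668 and 0.179). The epithelial relative Ehf was at 8.76 and 8.92 (adjusted p = 0.137).

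Partner factors of the intestinal epithelium were split. Of 17 measured, 3 rose, 3 fell and 11 were not called (median -0.001). Prdm1, the factor of the suckling-type epithelium and of plasma cells, fell by 0.69 (SE 0.09) and Maf by 0.48 (SE 0.11). The lipid-sensing receptor gene Ppara rose by 0.53 (SE 0.12) and the Notch target Hes1 by 0.38 (SE 0.08). Without the 3 arrays with the lowest controls the differences of Maf and Ppara were -0.42 (adjusted p = 0.136) and 0.38 (adjusted p = 0.113). The duodenal factor Pdx1 and Onecut2 lay below 4.58 in both genotypes.

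Within a genotype the factors varied little. The SD of the 9 brightest probe sets ran from 0.03 to 0.21 in wild type and from 0.02 to 0.15 in the knockout. After each genotype mean was subtracted, the 28 pairs among the 8 factors above the median signal had Pearson r from -0.45 to 0.97 over the 8 arrays, with a median of 0.20. Gata6 and Klf5 had the highest r, 0.97, followed by Hnf4g with Gata6 (0.89) and with Klf5 (0.86). The arrays share one normalisation, and 8 arrays describe such likeness loosely. Among 11093 other genes the closest to Klf4 on this measure were Mier2 (r = 0.99) and Nbl1 (r = 0.97), and to Cdx1 Fam32a and Nudt1 (r = 0.99 for both). Those closest to Hnf4g were Pik3r5 and Tmem229b (r = 0.98 for both), to Hnf4a Slc17a2 (0.97) and Idh2 (0.96), and to Cdx2 Ypel2 (0.98) and 1600012H06Rik (0.97). Gata6 was closest to Ddhd2 and B230354K17Rik (r = 0.99 for both), Klf5 to Epc1 (0.99) and B230354K17Rik (0.98), and Elf3 to Ugt2b34 and Plekho1 (r = 0.98 for both).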

How the data were processed

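Signals were deposited by the authors on the log2 scale for 8 arrays, made with RMA per the submitters' processing notes, which name no software. RNA (250 ng) was labelled by 3' in vitro transcription, per the labels' protocols. RMA compresses low signals, so changes near the floor are understated. No detection calls were used, and the number of arrays limits the precision.

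The table held 45141 rows, 104 of them controls. Of the others 28898 had 1 gene symbol, 551 several and 15588 none listed; 28689 were matched by Entrez identifier to RefSeq (GRCm38.p6) to update symbols. A gene in a list was represented by its probe set with the highest mean, which gave 17097 genes. No source used here places the Slc51a deletion relative to the probes. Of the 9 factors, 4 had a promoter in the RefSeq table that was searched; motifs were matched as exact letters in 250 bases.

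limma 3.58.1 in R 4.3.3 (lmFit, eBayes) was fitted to all 45037 probe sets, 2-sided. The 4 contrasts between relatives and the 9 between probe sets of 1 gene used 2-sided exact permutation tests over the 70 arrangements, with Benjamini-Hochberg adjustment in each family. On simulated arrays with 45037 probe sets, 50 probe sets were changed at each of 0.25, 0.5, 1 and 2. Of these 22% at 0.25, 84% at 0.5 and 100% at 1 and at 2 were recovered, with 5 false calls. Far fewer probe sets were changed there than the 9729 called in the data. The adjusted threshold was therefore stricter in the simulation, and these shares do not describe the recovery in this comparison. The factors and lists were chosen with earlier results of these data known. Named genes were all factors, Slc51a and Slc51b, for each list up to 4 called genes, by smallest adjusted p, with a signal at or above the median, all genes of the GATA4 and ELF3 lists, and the 2 genes with the highest r for each factor; other genes were named after their values were seen. Deviations of samples with the same replicate number correlated at 0.24, -0.10, 0.08 and 0.16, not above 0.1 for every number, so the numbers were not taken as pairs. The limma p-values set the difference between genotypes against the spread between these samples within a genotype. The permutation p-values rank a shift among the 70 arrangements of the samples. Figures were drawn with matplotlib 3.10.9.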

Additional observations from a re-analysis of the deposited data

Results flagged for a closer look

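In 9 of 194 groups of 4 samples tested, among the 18 probe sets and the named genes, 1 sample stood apart from the other 3 by more than Dixon's critical value, which chance gives in about 1 of 20 groups. The Cdx1 value of knockout replicate 4 was 8.75, above 8.51 to 8.55 in the other knockout samples, and the Cdx2 value of wild type replicate 1 on the dimmer probe set was 7.93, below 8.11 to 8.13. Knockout replicate 4 was also high for Cdk1 (9.31 against 9.12 to 9.13), Odc1 (7.64 against 7.48 to 7.50) and Fam32a (9.10 against 8.79 to 8.81). Wild type replicate 2 was high for Cdhr5 (10.35 against 10.06 to 10.07) and wild type replicate 3 for Jun (9.43 against 8.99). Wild type replicate 1 was low for Rnf43 (5.28 against 5.55 to 5.59), and knockout replicate 1 was high for Sct (9.31 against 8.98 to 9.04).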

How the results depend on the processing

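Klf4 on both probe sets and Cdx1 kept their call and direction under every alternative run, Klf4 from -0.93 to -0.72 and -0.97 to -0.80 and Cdx1 from 0.30 to 0.40; Hnf4g (1460127_PM_at) ran from -0.44 to -0.15 and lost its call with the mean of its probe sets. With quantile normalisation 6 of the 18 probe sets and 4 of the 9 factors were lower, with cyclic loess 8 and 4, and with the mean of probe sets 1 of 9; the calls added were on Hnf4a and Cdx2, and the cause was not tested. On leaving out 1 array 1 to 2 of the 18 probe sets were higher and 3 to 4 lower, the second rise being Hnf4a 1450447_PM_at without wild type replicate 2 (adjusted p = 0.0492), and of the 9 factors 1 was higher and 2 to 3 lower. Over all probe sets 4343 to 5205 were then higher and 3526 to 4524 lower, and of the genes 2319 to 2690 and 1710 to 1971. Without knockout replicates 3 and 4 and wild type replicate 2, where hybridization controls were lowest, 3435 probe sets and 1860 genes were higher and 2508 and 1248 lower, from fewer samples. At a threshold of 0.01, 3494 probe sets were higher, 2631 lower, and 1348 genes lower. On leaving out 1 array the contrast of Cdx1 minus Cdx2 ran from 0.45 to 0.57. That of Hnf4a minus Hnf4g ran from 0.18 to 0.31 and that of Klf4 minus Klf5 from -0.87 to -0.70. Without knockout replicate 4 all 3 passed (exact permutation, adjusted p = 0.0381), at 0.46, 0.31 and -0.71. All 3 then stood at the smallest p that the remaining samples allow, which alone set the adjusted value. The shifts of Cdx1 minus Cdx2 and of Klf4 minus Klf5 were smaller there than with all arrays (0.51 and -0.78). The replicate number as a block changed no call of the factors (Klf4 adjusted p = 9.48e-05 and 3.88e-05, Cdx1 0.00312, Hnf4g 0.0104), with 5331 probe sets higher and 4576 lower, and 6 of 12 immediate early genes and 4 of 8 macrophage markers lower; 5 of 8 samples correlated best with their own number, a hint from the data and not from the design. Of 966 recounts of the lists 878 were within 1.5 times the count given. Counts of 0 that stayed at 0 are among the 878, so this share says little about the other counts. The count of lower crypt stem cell genes left that range in 12 recounts, and that of lower fibroblast markers in 11. The scalings moved the median of all probe sets by at most 0.02, a figure that does not show shifts of single probe sets. With cyclic loess the bright Hnf4a probe set 1427001_PM_s_at went from -0.10 to -0.19, Fabp2 from -0.10 to -0.21 and Krt19 from 0.22 to 0.12.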

Other observations

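Several hormone genes of enteroendocrine cells rose in the knockout. Of 7 measured, 4 rose, 0 fell and 3 were not called (median 0.44), where 16.3% of all genes rose. Cck rose by 0.66 (SE 0.12), Pyy by 0.54 (SE 0.07) and Sct by 0.31 (SE 0.07), while Neurod1, a factor of this lineage, differed by 0.08 (adjusted p = 0.55). With cyclic loess 2 of the 7 rose, the calls of Sct (adjusted p = 0.0529) and Gcg (adjusted p = 0.0764) being lost. The Sct call was also lost without the 3 arrays with the lowest controls (adjusted p = 0.0696). Gcg rose by 0.46 (SE 0.13), a call that ended on leaving out any of 4 of the 8 arrays: wild type replicate 4 or knockout replicates 1, 2 or 3 (adjusted p = 0.0503 to 0.0718).

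Of 4 measured pancreatic acinar markers Cela1 alone was called and rose by 1.17 (SE 0.06), from 6.53 ± 0.10 to 7.69 ± 0.08, while Cpa1 and Prss2 lay below 4.58, the median signal, in each genotype.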
